A study of Mus musculus with 8 samples.

Results

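The genes described here make, degrade, carry and sense retinoic acid. They are the 3 retinaldehyde dehydrogenases Aldh1a1, Aldh1a2 and Aldh1a3, the retinoic acid hydroxylase Cyp26b1, the receptors Rara, Rarb and Rarg, the binding protein Crabp1 and the retinol transporter Stra6. Members were taken as the non-control probes whose gene name in the array files was one of these 9, which gave 12 of the 41174 distinct probes and 9 of 27962 gene names. Aldh1a3, Rarb and Rarg had 2 probes each and the other 6 genes had 1. RNA came from testes of male mice labelled VRK1-/- (mutant, 4 arrays) and VRK1+/+ (wild type, 4 arrays). Vrk1 encodes a nuclear serine/threonine kinase. Each array carried Cy3-labelled RNA of whole testicular cells, and the labels call the arrays of a genotype biological replicates from independent experiments. The labels used here give no age, strain or kind of Vrk1 allele and do not tie arrays to animals, so p-values measure the spread between these arrays.

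Retinoic acid is made from retinol in 2 oxidations, the second by the ALDH1A enzymes, and is removed by the CYP26 hydroxylases. It binds the RAR receptors, which act as heterodimers with the RXR receptors on response elements near target genes. In the mouse testis it starts the differentiation of spermatogonia and the entry into meiosis. There Aldh1a1 is known from Sertoli and Leydig cells, Aldh1a2 from spermatocytes and spermatids, and Cyp26b1 from the peritubular layer. Rarg is known from spermatogonia, and Rara from Sertoli and germ cells.

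The sequences below show what was measured for the receptors and what lies before the starts of 3 members. The probes for Rara (mm7 chr11:99079584-99079643, plus strand), Rarb (chr14:14362927-14389669, minus strand) and Rarg (chr15:102222347-102224987, minus strand) are printed because these receptors gave dim signals that depend on the background correction. The Rarb and Rarg probes span more genome than their 60 bases, so each crosses an exon junction.
Rara probe A_51_P389724: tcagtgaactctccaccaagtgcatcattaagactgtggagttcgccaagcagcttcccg
Rarb probe A_52_P495759: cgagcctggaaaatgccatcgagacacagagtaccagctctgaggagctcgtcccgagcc
Rarg probe A_51_P372858: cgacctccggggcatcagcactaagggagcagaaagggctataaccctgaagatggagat

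The 250 bases before a RefSeq start are given for Aldh1a1 (GRCm38.p6 chr19:20492333-20492582, plus strand) and Aldh1a2 (chr9:71215539-71215788, plus strand), the synthesis genes that differed in opposite directions. They are also given for Rarb (chr14:16575477-16575726, minus strand), the single member with a match to the DR5 response element. That match is in capitals.
Aldh1a1 upstream: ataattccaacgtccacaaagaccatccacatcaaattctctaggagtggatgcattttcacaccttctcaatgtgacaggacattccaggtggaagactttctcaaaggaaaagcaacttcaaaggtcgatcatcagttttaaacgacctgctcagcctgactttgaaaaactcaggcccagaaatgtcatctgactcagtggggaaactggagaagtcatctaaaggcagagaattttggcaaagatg
Aldh1a2 upstream: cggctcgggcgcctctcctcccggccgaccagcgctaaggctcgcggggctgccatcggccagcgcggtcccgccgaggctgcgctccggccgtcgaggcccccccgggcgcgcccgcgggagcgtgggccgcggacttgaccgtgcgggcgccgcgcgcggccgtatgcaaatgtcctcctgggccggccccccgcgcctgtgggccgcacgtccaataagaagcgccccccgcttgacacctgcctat
Rarb upstream: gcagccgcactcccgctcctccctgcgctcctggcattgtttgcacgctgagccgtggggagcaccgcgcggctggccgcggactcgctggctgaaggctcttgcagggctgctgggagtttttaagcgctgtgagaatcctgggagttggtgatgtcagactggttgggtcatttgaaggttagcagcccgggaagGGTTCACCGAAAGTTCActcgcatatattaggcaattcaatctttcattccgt

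DR1, DR2 and DR5 are direct repeats of the receptor half-site with spacers of 1, 2 and 5 bases. They were searched on both strands in RefSeq windows of 250 bases before to 50 bases after each start. The 16 windows of 8 members held 1 DR5 match, whereas 0.0974% of all 32851 windows held one. That match lay at position -53 from the start of the Rarb window, which is not the start listed for the Rarb gene as a whole. No member window held DR1 (0.222% of all windows) or DR2 (0.268%). The single half-site AGGTCA stood in 2 member windows, of Rara and Rarg, and in 16.3% of all windows.

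Array signals were divided by the array's 75th percentile and converted to log2, so a level of 0 is the 75th percentile. That percentile was 928 to 1124 on mutant arrays, against 680 to 790 on wild-type arrays, and 83.3% to 86.5% of features lay well above background on mutant arrays, against 73.2% to 77.5% on wild-type arrays. Each genotype had a slide and a scan of its own, so the slide, the scan and the genotype cannot be told apart. Vrk1 RNA was 4.78-fold lower in mutant testes by probe A_51_P102339 (log2 difference -2.26, SE 0.15, limma adjusted p = 0.000165) and 4.17-fold lower by A_52_P555672.

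All 12 member probes passed the filter on dim probes. With limma and Benjamini-Hochberg adjustment over 33717 probes, 4 member probes were higher and 1 was lower in mutant testes at an adjusted p under 0.05, and by gene 3 of 9 were higher and 1 was lower. Of all probes, 21.2% were higher and 10.8% were lower, 32.1% in all, and the share of the calls that were higher was 66.2%. That split was 33.9% higher with arrays scaled to their median and 40.3% with normexp background correction. One of the 4 higher member probes, the Aldh1a3 probe A_52_P113518, passed the filter through its mutant arrays alone. Mutant replicates 1 and 4 had the highest log2 summed level of epididymal markers, at 3.86 and 3.46, against 0.32 and 0.12 on mutant replicates 2 and 3. Without mutant replicates 1 and 4, the share of all probes called was 4.56%. Limma then called 1 member probe and 0 member genes. That probe was A_52_P113518, which passed the filter through its mutant arrays alone, so this call adds no support. At an unadjusted limma p under 0.05 there were 3 of 9 member genes, and 9926 of all 33717 probes. Single arrays also moved the count of member probes, to 2 without mutant replicate 1, mutant replicate 4, wild-type replicate 2 or wild-type replicate 3, and to 3 without mutant replicate 3.

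**Figure D1:**
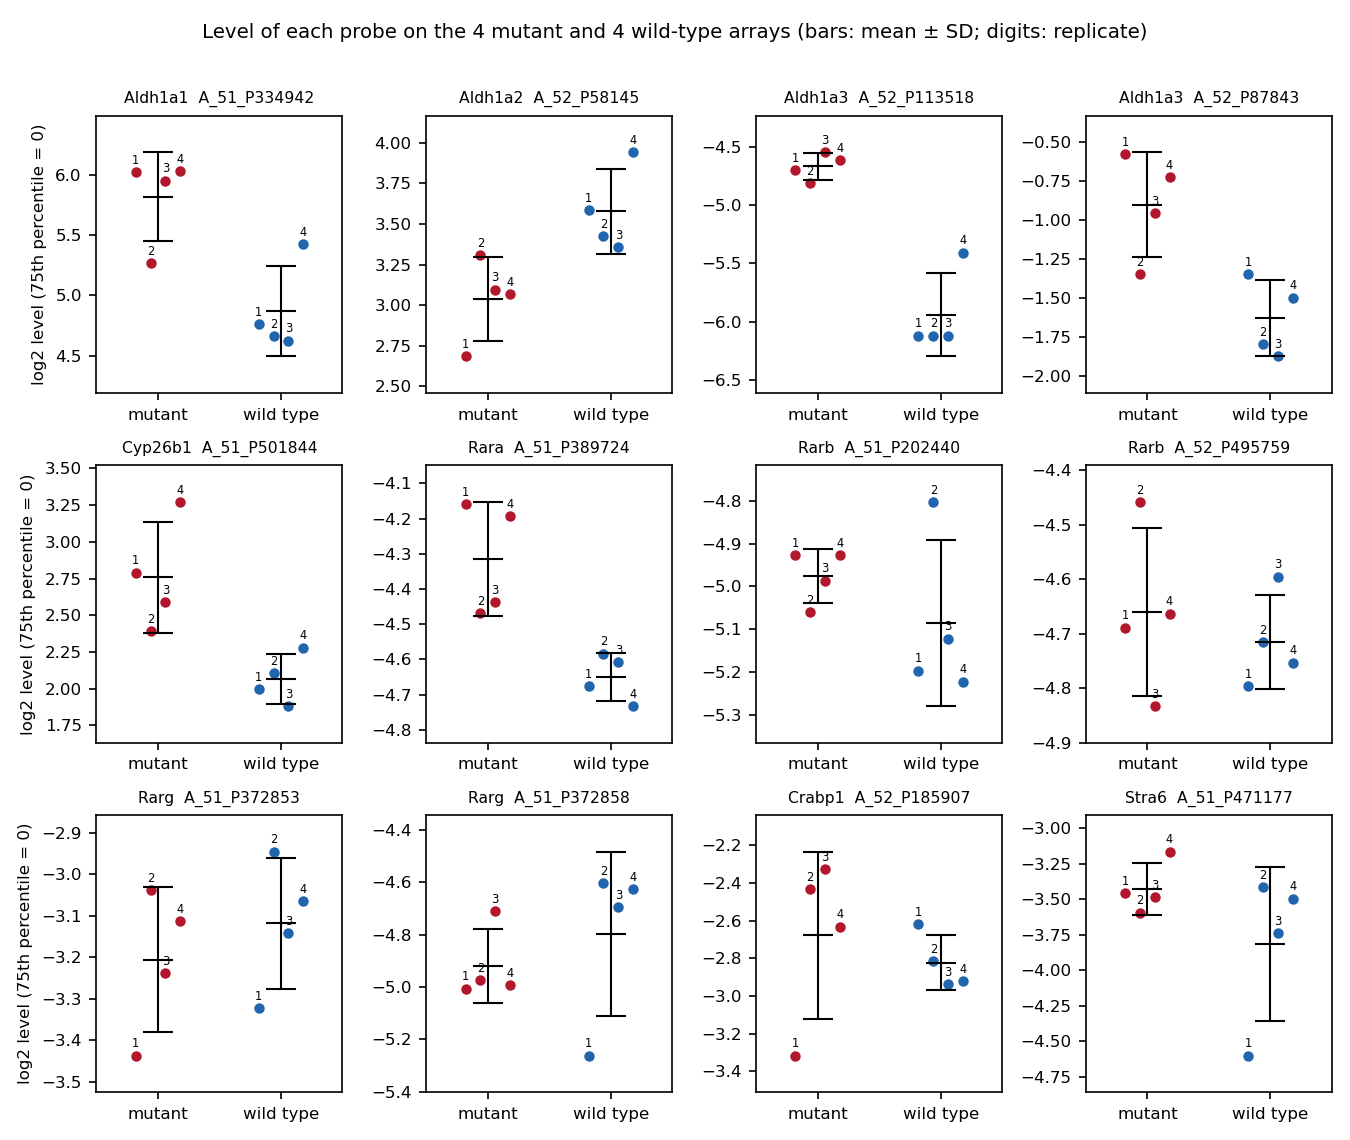
Log2 level of each of the 12 member probes relative to the array's 75th percentile (y axis, scale differs between panels) on the 4 mutant and the 4 wild-type arrays, with digits for the replicate and bars for the mean ± SD. The mutant arrays of Aldh1a2 all lie below the wild-type arrays, and those of Cyp26b1 all lie above them, while 35.3% of all probes show no overlap.

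Aldh1a1, a cytosolic retinaldehyde dehydrogenase, was 1.93-fold higher in mutant testes. Its probe A_51_P334942 (mm7 chr19:20343581-20343640, plus strand) had log2 levels of 6.03, 5.27, 5.95 and 6.03 on the mutant arrays, against 4.76, 4.66, 4.63 and 5.43 on the wild-type arrays. Mutant replicate 2 lay below wild-type replicate 4, so the groups overlapped. The means were 5.82 ± 0.37 in mutant and 4.87 ± 0.38 in wild type (SD, n = 4 each), a difference of 0.95 (SE 0.24, 95% interval 0.43 to 1.48, limma adjusted p = 0.0160). Leaving out any single array kept the call, with an adjusted p of at most 0.0484. Without mutant replicates 1 and 4 the difference was 0.74 and the limma adjusted p 0.156. Aldh1a7, a paralog of Aldh1a1 chosen after its values were seen, was 2.58-fold higher in mutant testes (log2 difference 1.37, SE 0.24, limma adjusted p = 0.00477), and whether either probe also detects the other gene's RNA was not tested.

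Aldh1a2, the main retinoic acid-synthesising enzyme of the embryo, was 1.45-fold lower in mutant testes. Its probe A_52_P58145 (mm7 chr9:71330506-71330565, plus strand) had log2 levels of 2.68, 3.31, 3.09 and 3.07 on the mutant arrays, against 3.58, 3.43, 3.36 and 3.94 on the wild-type arrays. The groups did not overlap, as for 35.3% of all probes. The difference of means was -0.54 (SE 0.18, 95% interval -0.95 to -0.13, limma adjusted p = 0.0476). The call did not hold when single arrays were left out, with limma adjusted p-values of 0.117, 0.0897 and 0.0865 without mutant replicates 1, 3 and 4. It was 0.0700, 0.0670, 0.0599 and 0.0827 without wild-type replicates 1, 2, 3 and 4, and it passed without mutant replicate 2 (0.0391). Quantile normalization gave a difference of -0.28 and cyclic loess -0.24, with limma adjusted p-values of 0.284 and 0.372. Without mutant replicates 1 and 4 the difference was -0.37 (limma adjusted p = 0.260).

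Aldh1a3, the third retinaldehyde dehydrogenase, was higher in mutant testes by 1 of its 2 probes, while the other was not called well above background in wild type. Probe A_52_P87843 (mm7 chr7:62248866-62248925, minus strand) had log2 levels of -0.58, -1.35, -0.96 and -0.72 on the mutant arrays, against -1.35, -1.80, -1.87 and -1.50 on the wild-type arrays. The lowest mutant array and the highest wild-type array lay next to each other without crossing, and 35.3% of all probes had no overlap. The difference was 0.73 (SE 0.20, limma adjusted p = 0.0225), or 1.66-fold. The adjusted p from limma was 0.0625, 0.0527 and 0.0591 without mutant replicates 1, 3 and 4, and 0.0581 and 0.0629 without wild-type replicates 2 and 3. Without mutant replicates 1 and 4 together the difference was 0.48 (limma adjusted p = 0.189). Probe A_52_P113518 (chr7:62266988-62267047) was below the well-above-background call on all 4 wild-type arrays. It lay at -4.70, -4.81, -4.55 and -4.61 on the mutant arrays, against 3 wild-type arrays at the floor of -6.12 and 1 at -5.41. At these levels mutant arrays were 2.42-fold higher by this probe (limma adjusted p = 0.00220). The wild-type values lie within background and 3 are set by the floor, so this ratio is not a bound on the RNA. The probe passed the filter through the mutant arrays alone, so this p adds no support. Normexp background correction gave a difference of -0.29, against a median of -0.23 for all probes.

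Cyp26b1, which hydroxylates retinoic acid and so removes it, was 1.62-fold higher in mutant testes. Its probe A_51_P501844 (mm7 chr6:84601274-84601333, minus strand) had log2 levels of 2.79, 2.39, 2.59 and 3.27 on the mutant arrays, against 2.00, 2.11, 1.88 and 2.28 on the wild-type arrays. Every mutant array lay above every wild-type array, and the groups did not overlap for 35.3% of all probes. The means were 2.76 ± 0.38 in mutant and 2.07 ± 0.17 in wild type (SD, n = 4 each), a difference of 0.69 (SE 0.20, limma adjusted p = 0.0260). The limma adjusted p was 0.0622 and 0.0515 without mutant replicates 1 and 4, and 0.0525 and 0.0697 without wild-type replicates 2 and 3. With median scaling the difference was 0.48 (limma adjusted p = 0.0726), and without mutant replicates 1 and 4 together it was 0.42 (limma adjusted p = 0.157). Cyp26a1, the related hydroxylase, did not pass (log2 difference -0.33, SE 0.15, limma adjusted p = 0.108).

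None of the 5 receptor probes passed. Rara, a receptor of Sertoli and germ cells, had log2 levels of -4.16, -4.47, -4.44 and -4.19 on the mutant arrays, against -4.68, -4.58, -4.61 and -4.73 on the wild-type arrays. The groups did not overlap, as for 35.3% of all probes, and the difference was 0.34 (SE 0.13, 95% interval 0.04 to 0.63, limma adjusted p = 0.0735). Its processed signals were 41.9 to 61.5 on mutant arrays and 26.6 to 29.7 on wild-type arrays. The direction changed with the processing, which gave -0.35 with normexp and -0.08 with quantile normalization. With normexp the median of all probes was -0.23. The normexp offset of 50 is close to these signals, so its sign does not settle the direction of so dim a probe. With no filter on dim probes the limma adjusted p was 0.0323.

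Rarb, whose own gene is a known target of the receptors, and Rarg did not pass. The Rarb probe A_51_P202440, spotted 10 times on each array (mm7 chr14:14246146-14246205, minus strand), lay between -5.06 and -4.93 on mutant arrays, against -5.22 to -4.80 on wild-type arrays. Its difference was 0.11 (95% interval -0.20 to 0.42, limma adjusted p = 0.546), and quantile normalization gave -0.42 with a limma adjusted p of 0.0458. The junction probe A_52_P495759 of Rarb differed by 0.05 (95% interval -0.24 to 0.35). The Rarg probe A_51_P372853 (chr15:102222035-102222094, minus strand) lay between -3.44 and -3.04 on mutant arrays, against -3.32 to -2.95 on wild-type arrays, and differed by -0.09 (95% interval -0.41 to 0.24, limma adjusted p = 0.654). The junction probe A_51_P372858 of Rarg differed by -0.12 (95% interval -0.52 to 0.27), and quantile normalization gave -0.65 with a limma adjusted p of 0.0132.

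Crabp1, which binds retinoic acid in the cytosol, lay at -3.32, -2.43, -2.33 and -2.63 on the mutant arrays, against -2.62, -2.82, -2.94 and -2.92 on the wild-type arrays (probe A_52_P185907, mm7 chr9:54797711-54797770, plus strand). Mutant replicate 1 was the lowest of the 8 arrays, while the other 3 mutant arrays lay among or above the wild-type arrays. The difference was 0.15 (95% interval -0.34 to 0.63, limma adjusted p = 0.616). Stra6, the membrane receptor that takes up retinol, lay at -3.46, -3.59, -3.48 and -3.16 on the mutant arrays, against -4.60, -3.41, -3.74 and -3.50 on the wild-type arrays (probe A_51_P471177, chr9:58180793-58181404, plus strand). Wild-type replicate 1 was the lowest, and the difference of 0.39 did not pass (95% interval -0.17 to 0.95, limma adjusted p = 0.249).

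**Figure D2:**
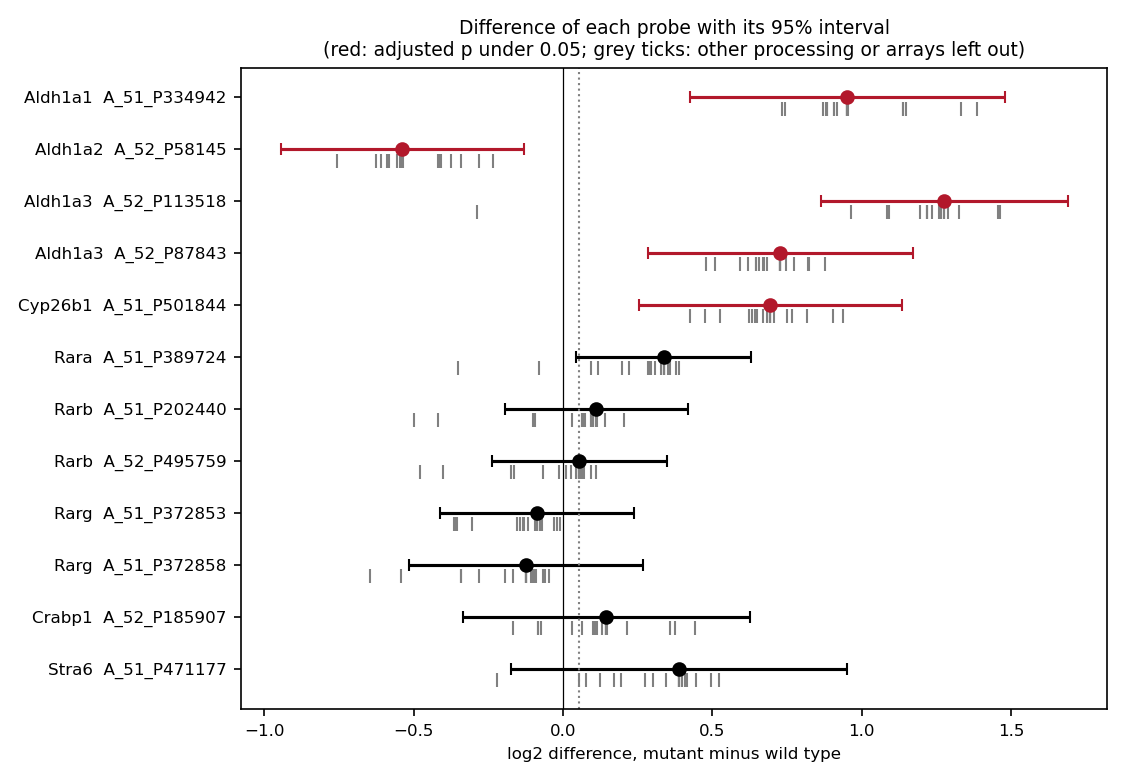
Log2 difference of each member probe, mutant minus wild type (x axis), with its 95% interval from limma, red where the adjusted p was under 0.05, with grey ticks for other processing or left-out arrays and a dotted line at the median of all probes (0.05). Aldh1a1 lies at 0.73 or more under every alternative shown. Rara, both Rarb probes, the Aldh1a3 probe A_52_P113518, Crabp1 and Stra6 have ticks on both sides of 0.

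Aldh1a1 and Aldh1a2 were set against each other within arrays, where scaling by a constant has no effect. Within an array the log2 level of Aldh1a1 minus that of Aldh1a2 was 2.78 ± 0.59 in mutant and 1.29 ± 0.13 in wild type (SD, n = 4 each), an unequal change of 1.49 or 2.81-fold. Every mutant array exceeded every wild-type array. The two-sided exact permutation p was 0.0286, the smallest that 4 against 4 arrays allow, and 0.114 after adjustment over the 4 pairs compared. Aldh1a1 minus Cyp26b1 differed by 0.26 (exact permutation p = 0.200). Rara minus Rarb differed by 0.28 (exact permutation p = 0.114), and Rara minus Rarg by 0.42 (exact permutation p = 0.0571). Without mutant replicate 2 the exact permutation p adjusted over the pairs was 0.0381 for Aldh1a1 minus Aldh1a2 (1.76), Rara minus Rarb (0.40) and Rara minus Rarg (0.53). No other single array left out brought an adjusted p under 0.05. Without any 1 wild-type array, Aldh1a1 minus Aldh1a2 had an exact permutation p of 0.0571, adjusted 0.114 to 0.171. Without mutant replicates 1 and 4 its exact permutation p was 0.0667, the smallest possible there, and 0.267 adjusted. With normexp, Rara minus Rarb was 0.13 and Rara minus Rarg 0.0025 (exact permutation p = 0.114 and 0.971).

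Markers of several cell types differed as well. In bulk tissue fewer cells of a type and less RNA per cell cannot be told apart. Of the Sertoli markers, 10 of 12 were higher in mutant testes, with a log2 summed level of 7.11 to 7.72 on mutant arrays against 6.0 to 6.61 on wild-type arrays. For Leydig markers 5 of 9 tested were higher (7.22 to 7.96 against 6.27 to 7.08), and Lhcgr, too dim to be tested, reached that call on none of the wild-type arrays. Spermatocyte markers were lower for 4 of 10 (7.97 to 8.36 in mutant against 8.56 to 8.72 in wild type), and 5 of 10 spermatid markers were lower (10.36 to 10.84 in mutant against 10.70 to 11.10 in wild type). Macrophage markers were higher for 7 of 9 tested. Spermatogonial markers were higher for 4 of 11, but their summed level overlapped (4.10 to 4.51 in mutant against 4.19 to 4.45 in wild type). Of all probes, 21.2% were higher and 10.8% were lower. None of the 6 peritubular myoid markers passed (4.20 to 4.95 in mutant against 4.50 to 5.09 in wild type). Epididymal markers summed to 3.86, 0.32, 0.12 and 3.46 on the mutant arrays, against -0.50 to -0.38 on the wild-type arrays. Of the 10, 4 were well above background on too few arrays to be tested. Among these, Adam7 lay at -0.74 and -1.37 on mutant replicates 1 and 4, and at -5.36 or lower on the other arrays. The part of these shifts in the member results was not tested.

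Set against these lists on the same array, in 4 comparisons chosen after the values were seen, Aldh1a1 minus the mean of the Sertoli markers was 4.25 ± 0.15 in mutant and 4.22 ± 0.44 in wild type (SD, n = 4 each; exact permutation p = 0.943). Aldh1a1 minus the Leydig mean differed by -0.07 (exact permutation p = 0.686) and Aldh1a2 minus the spermatocyte mean by -0.06 (exact permutation p = 0.743). Under quantile normalization Aldh1a1 minus the Sertoli mean differed by 0.33, under cyclic loess by 0.34, and without wild-type replicate 4 by 0.25 (exact permutation p = 0.314, 0.286 and 0.0857). Aldh1a1 minus the Leydig mean differed by 0.16 under quantile normalization and by -0.22 without wild-type replicate 1, where the exact permutation p was 0.0286 and 0.0571 after adjustment. Aldh1a2 minus the spermatocyte mean differed by 0.05 under quantile normalization and by -0.23 without mutant replicates 1 and 4 (exact permutation p = 0.800 and 0.400). Without those 2 arrays Aldh1a1 minus the Sertoli mean differed by -0.02 and minus the Leydig mean by -0.10. Cyp26b1 minus the peritubular mean was 1.57 ± 0.11 in mutant and 0.94 ± 0.16 in wild type (SD, n = 4 each), and the groups did not overlap. That difference of 0.63 had an exact permutation p of 0.0286, and 0.114 after adjustment over the 4. Without mutant replicates 1 and 4 it was 0.59 (exact permutation p = 0.0667, and 0.267 after adjustment).

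**Figure D3:**
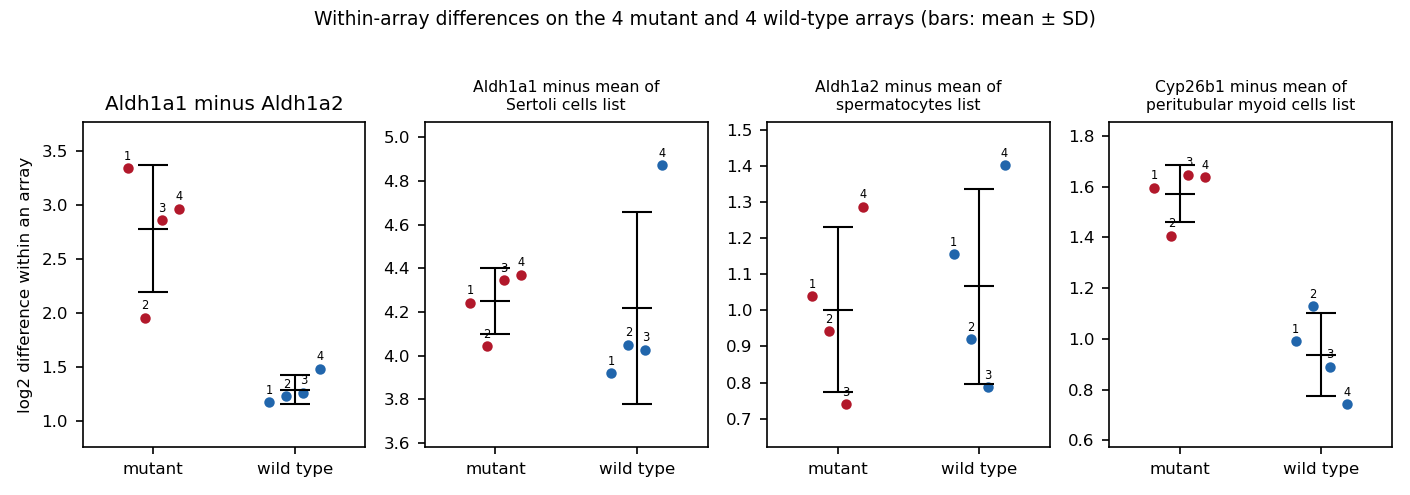
Difference of 2 log2 levels within each array (y axis) on the 4 mutant and the 4 wild-type arrays, with bars for the mean ± SD. Aldh1a1 minus Aldh1a2 and Cyp26b1 minus the peritubular mean are higher on every mutant array than on any wild-type array, and the groups overlap in the middle panels.

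Of 42 other genes of retinoid handling and signalling, 37 were tested. In mutant testes 10 were higher and 5 lower, while 21.2% of all probes were higher and 10.8% lower. Their median log2 difference was 0.02, against 0.05 for all probes. Median scaling turned the balance of calls, with 6 higher and 10 lower, as it did for all probes (4491 higher and 8768 lower). The median was then -0.20, against -0.17 for all probes. Among genes for retinol handling, Retsat, which saturates retinol, was higher (1.09, SE 0.28, limma adjusted p = 0.0187). Among oxidoreductases, Adh5, an alcohol dehydrogenase, was higher by 1.09 (limma adjusted p = 0.00284) and Rdh13, a retinol dehydrogenase, by 1.11 (limma adjusted p = 0.00458). For Rdh13, normexp gave 0.30 (limma adjusted p = 0.252), and its second probe did not pass (0.93, limma adjusted p = 0.0519). Carriers that pass retinoic acid to receptors were dim. Fabp5 lay below that call on all 4 wild-type arrays and passed the filter through the mutant arrays alone, so its limma adjusted p of 0.00176 adds no support. With wild-type values at or near the floor, it was 1.98-fold higher on mutant arrays, which is not a bound on the RNA. Crabp2 differed by 0.84 (limma adjusted p = 0.0333). It was well above background on 4 mutant arrays and 1 wild-type array. The mutant arrays alone met the filter, so this p adds no support. Normexp gave -0.36 for Fabp5 and -0.31 for Crabp2. The partner receptor Rxra was lower (-0.58, limma adjusted p = 0.0441), while its second probe differed by 0.58 in the other direction without passing, and Ppard did not pass (0.44, limma adjusted p = 0.0953). The coactivator Ncoa2 was higher by 1 probe (0.73, limma adjusted p = 0.0116), while its other 2 probes did not pass (0.26 and 0.02, limma adjusted p = 0.156 and 0.931). Of these calls, 3 did not hold when single arrays were left out. The limma adjusted p reached 0.0545 for Retsat (without mutant replicate 1, likewise lost without mutant 4 or wild-type 3). It reached 0.0855 for Crabp2 (without mutant replicate 4, likewise mutant 1 or 3 or wild-type 3 or 4). It reached 0.106 for Rxra (without wild-type replicate 2, likewise mutant 1, 2 or 3 or wild-type 3). Without mutant replicates 1 and 4 together, Retsat (0.76), Rdh13 (0.92), Crabp2 (0.70), Rxra (-0.84) and Ncoa2 (0.51) did not pass, with limma adjusted p-values from 0.0599 to 0.218, and Adh5 passed (0.92, 0.0492). The count of 15 calls became 6 without mutant replicate 1, mutant replicate 4 or wild-type replicate 3, 7 without mutant replicate 3 and 8 without wild-type replicate 2. The calls over all probes, 10815 with every array, fell to between 6448 and 7597 without any 1 of these arrays.

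Of 15 genes known to respond to retinoic acid, 12 were tested, and 6 were higher and 1 was lower. Of all probes, 21.2% were higher and 10.8% lower. The median log2 difference of the 12 was 0.46, against 0.05 for all probes. It was -0.03 with normexp (-0.23 for all probes) and 0.25 with quantile normalization (-0.06 for all probes). Kit, the receptor of differentiating spermatogonia that Leydig cells also carry, lay at 0.03, -0.42, 0.10 and -0.10 on the mutant arrays, against -0.91, -1.11, -1.19 and -0.94 on the wild-type arrays (difference 0.94, limma adjusted p = 0.00342). Every mutant array was higher, and 35.3% of all probes had no overlap of the groups. Stra8, which starts meiosis, differed by -0.16 (SE 0.25, limma adjusted p = 0.638), with mutant arrays from 2.01 to 3.20 around wild-type arrays from 2.59 to 3.07. Rec8, a meiotic cohesin, was 1.54-fold lower (-0.63, limma adjusted p = 0.0147), and its second probe was lower too (-0.55, limma adjusted p = 0.0136). For the first probe quantile normalization gave -0.28 and cyclic loess -0.26 (limma adjusted p = 0.142 and 0.170). Without mutant replicates 1 and 4 neither Kit (0.88, limma adjusted p = 0.0548) nor Rec8 (-0.61, limma adjusted p = 0.0671) passed. The transcription factor Meis2 was higher by 1.00 (limma adjusted p = 0.00472, but -0.13 with normexp), and the ligand Efnb1 was higher by 0.89 (limma adjusted p = 0.00808).

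**Figure D4:**
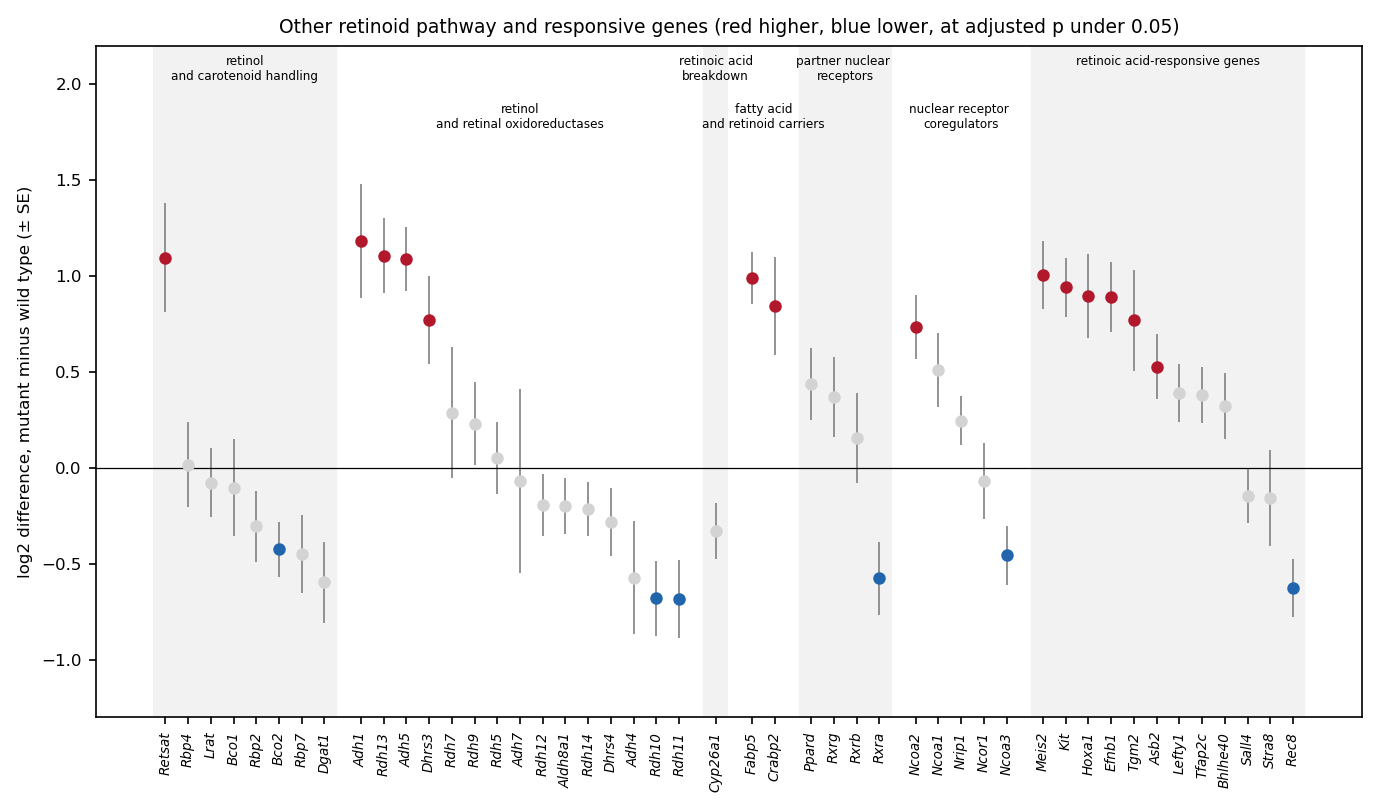
Log2 difference, mutant minus wild type (y axis, ± SE), of tested retinoid pathway and responsive genes by role, red for higher and blue for lower at an adjusted p under 0.05 and grey otherwise. Kit and Meis2 stand near 1, and Rec8 is the lowest responsive gene at -0.63.

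The genes whose log2 level followed Aldh1a1 most closely over the 8 arrays were Tmem86a (Pearson r = 0.994), Tmem43 (r = 0.993) and Psma7 (r = 0.991). This is a description over 8 arrays that share a genotype difference.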

How the data were processed

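RNA was measured on 8 single-colour Agilent arrays of mouse testis, 4 mutant and 4 wild type. The submitters' processing notes name Agilent Feature Extraction 9.5.3.1. The deposited intensity is the background-subtracted processed signal, detrended within the array and not scaled between arrays per the file headers. The deposited series table held the same intensities.

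Each signal was divided by the array's 75th percentile, raised to a floor of 0.0144 of it, because some signals were negative, and converted to log2. Outlier spots were left out and repeated spots averaged. The filter kept 33717 probes that were called well above background on 4 or more arrays, with 3 or more values a group. Tests used limma 3.58.1 (R 4.3.3), two-sided, adjusted over these probes. A gene is its passing probe with the highest mean. Within-array differences were tested by exact permutation. Alternatives were other scalings, normexp with an offset of 50, filters, weights, the replicate number as a block, and left-out arrays. The procedure was tested on simulated data. Named genes were every member, the 2 companions of each role with the smallest p, Stra8, Kit, Rec8 and 2 others. Of the genes this rule picked, 2 are not reported here, though counts include them. The members and lists were chosen with earlier results of these data known. Precision is limited by 4 arrays a group.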

Additional observations from a re-analysis of the deposited data

Results flagged for a closer look

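Single arrays stood apart in 4 of the 24 groups of 4 arrays checked, and chance sets apart about 1 in 20. The distance of the outlying array from its nearest neighbour, as a share of the group's range, was above Dixon's 95% critical value in each. For Aldh1a1 on mutant arrays it was 0.898, with replicate 2 low at 5.27. For the Aldh1a3 probe A_52_P113518 on wild-type arrays it was 1, with replicate 4 at -5.41 and the others at the floor, and that ratio is set by the floor, so it does not count as a finding. For the Rarg probe A_51_P372858 it was 0.888 on mutant arrays, where replicate 3 was high at -4.71, and 0.859 on wild-type arrays, where replicate 1 was low at -5.26.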

How the results depend on the processing

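Across the alternatives run, the call held in 19 of 20 for Aldh1a1, 14 of 20 for Cyp26b1, 13 of 20 for the Aldh1a3 probe A_52_P87843 and 7 of 20 for Aldh1a2, and the direction held in all 20 for each. Normexp gave -0.29 for the Aldh1a3 probe A_52_P113518, -0.36 for Fabp5, -0.31 for Crabp2 and -0.13 for Meis2, and quantile normalization gave -0.42 for Rarb. These probes are dim, and the normexp offset of 50 limits what its sign shows for them. Probes called, 10815 in all, numbered 5189 with normexp, 18578 with array weights and 1538 without mutant replicates 1 and 4. Member probes called numbered 3 with normexp or median scaling and 1, the Aldh1a3 probe A_52_P113518, without mutant replicates 1 and 4. Member genes called numbered 2 with median scaling and 0 without those replicates, by limma. Without those replicates 3 of 9 member genes had an unadjusted limma p under 0.05, as did 9926 of all 33717 probes. Companion genes called numbered 9 with no filter and 2 without those replicates, and responsive genes called 4 with normexp or quantile normalization and 2 without them. The cause of these changes was not tested.

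Leaving out 1 array gave 6448 to 11769 probes, 2 to 5 member probes, 1 to 4 member genes, 6 to 14 companion genes and 5 to 7 responsive genes, and differences of 1.30 to 1.76 for Aldh1a1 minus Aldh1a2, 0.16 to 0.37 for Aldh1a1 minus Cyp26b1, 0.22 to 0.40 for Rara minus Rarb and 0.29 to 0.53 for Rara minus Rarg. Replicate numbers are not said to pair arrays, and same-numbered arrays correlated in their deviations at 0.28, 0.24, 0.09 and 0.61, each best with its own number. With the replicate number as a block, 15155 probes, 5 member probes, 4 member genes, 19 companion genes and 7 responsive genes were called. The median difference of all probes was 0.05, but -0.17 with median scaling and -0.23 with normexp. Relative to it, Aldh1a1 was 0.90, 0.90 and 1.19, and Aldh1a2 was -0.59, -0.59 and -0.18. Receptor probes lay near background, which limits what they show.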

Other observations

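Other genes of vitamin A oxidation, chosen after their values were seen, differed in both directions. Adh1, an alcohol dehydrogenase that oxidises retinol, was higher in mutant testes by 2 probes, with log2 differences of 1.18 and 1.22 (limma adjusted p = 0.0171 and 0.0163). Its other probe lay at the floor on all 4 wild-type arrays and passed the filter through the mutant arrays alone. With wild type at the floor, mutant arrays were 2.22-fold higher, which is not a bound on the RNA. Dhrs3, a retinaldehyde reductase, was higher by 0.77 by both probes (limma adjusted p = 0.0308 and 0.0155). Rdh11, a retinal reductase, was lower by both probes, at -0.68 and -0.59 (limma adjusted p = 0.0306 and 0.0163). Rdh10, the retinol dehydrogenase of the embryo, had probes that disagreed, at -0.68 (limma adjusted p = 0.0274) and 0.38 (limma adjusted p = 0.0625).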
